A study of Homo sapiens with 7 samples.

Results

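The 9 genes described here carry the steps from the release of arachidonic acid to the sensing and breakdown of prostaglandin E2: PLA2G4A, PTGS1, PTGS2, PTGES, PTGES2, PTGES3, HPGD, PTGER2 and PTGER4. The rule was their names, with earlier results of these data known, and not a threshold on values. All 9 were found among the 19978 genes of the count table. RNA was sequenced from HEK-293, an established human embryonic kidney cell line, grown in DMEM with serum and then kept for 48 h in the DMEM of each group. Control cells (2 samples) were kept at pH 7.4 and received only the vehicle DMSO. For acidosis (3 samples) the medium was titrated to pH 6.6 with HCl, also with DMSO. SRPIN340, an inhibitor of SR protein kinases, was given at 10 µM in an equal amount of DMSO at pH 7.4 (2 samples). The samples are biological repeats of 1 cell line. The methods of the study name serum for the growth medium and do not state it for the 48 h media. The study used these samples to learn how prolonged mild acidification changes transcription and, above all, alternative splicing. It also asked whether inhibition of SR protein kinases gives a similar picture. Counts by gene are described here, and splicing is not.

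Prostaglandins are short-lived lipid signals made on demand. A phospholipase A2 frees arachidonic acid from membranes, a cyclooxygenase (PTGS1 or PTGS2) turns it into prostaglandin H2, and a terminal synthase gives the final product. Prostaglandin E2 leaves the cell, acts on receptors of its own and of neighbouring cells, and is inactivated by the dehydrogenase that HPGD encodes. In the kidney it takes part in the control of blood flow and of salt and water transport. Measured here was the RNA of these genes, not the enzymes or the lipids.

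PTGS2 is the inducible cyclooxygenase gene, with a short-lived mRNA in many cell types. It was the member with the largest change, so bases before its start and from its 3′ UTR are shown. Only the motifs listed here were searched, and sites of other factors are not marked. The 250 bases before its RefSeq start, GRCh38.p14 chr1:186680424-186680673 on the minus strand, are given with capitals for every match of 7 short motifs. These were the cAMP response element TGACGTCA, its core CGTCA, the AP-1 motif TGANTCA, the heat shock element GAANNTTC, the EGR1 motif GCGGGGGCG, the TATA box TATAAA and the CCAAT box CCAAT, each on both strands.
PTGS2: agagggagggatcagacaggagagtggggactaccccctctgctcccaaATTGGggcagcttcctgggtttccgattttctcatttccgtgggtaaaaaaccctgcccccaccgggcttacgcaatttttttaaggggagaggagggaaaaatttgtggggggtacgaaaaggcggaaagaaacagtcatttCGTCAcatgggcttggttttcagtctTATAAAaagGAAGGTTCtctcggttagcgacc
With the base before the start as -1, the capitals are a reversed CCAAT box at -201 to -197, the CGTCA core at -58 to -54, the TATA box at -32 to -27 and the heat shock element at -23 to -16. Among 35116 RefSeq promoters of this length, 32% held a CCAAT box, 21.2% the CGTCA core, 10.7% the TATA box and 5.78% the heat shock element. The window lies inside the GENCODE gene, which has transcripts that start farther upstream, and the antisense lncRNA PACERR begins in it. A match is only a run of letters and no binding was measured.

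The 3′ UTR of the canonical PTGS2 transcript is 2562 bases long and holds 22 copies of ATTTA, the core of AU-rich elements, against a median of 2 copies in the 14795 tested genes with a 3′ UTR. Stretches of 27 bases with the most ATTTA copies (in capitals) are shown for PTGS2, which rose most in acidosis, and for PTGER4 and PTGES3, the other members with 2 or more copies in such a stretch.
PTGS2: agtctaatgatcatATTTATTTATTTA
PTGER4: tgttgtacatacgATTTAaggtATTTA
PTGES3: actaaaATTTAtttttcaaaaaATTTA
ATTTA was denser in the 3′ UTR of PTGS2 (8.59 copies per kilobase) than in 98.5% of these genes. The density was 8.46 in PLA2G4A and 6.63 in PTGER4, also above 98.4% and 96.3% of the genes. It was 5.31 in PTGES3 and 4.37 in PTGER2, above 92.7% and 87.7% of the genes. The part of this density in the changes was not tested. PTGES2 had no copy in 452 bases.

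Library totals were 13615816 to 24110460 counts, lowest in acidosis replicates 2 and 3, so genes of low expression were measured less precisely there. In these bulk samples fewer cells and less RNA per cell cannot be told apart, and fold changes are relative to the typical gene. When TMM factors were left out (total-count scaling), the median over all genes moved from -0.052 to -0.63 on the log2 scale in acidosis. The 9 marker genes of HEK-293 (kidney progenitor and neurofilament genes, VIM and CDH2) were all above 1 CPM in every group. CPM are counts in every 1000000 counts of the TMM-scaled library total. Marker lists of other cell types were also read, because leukocytes and fibroblasts are strong sources of prostaglandins. The summed level of 5 leukocyte markers was 8.74 to 8.9 CPM in control, 9.36 to 11.5 CPM with SRPIN340 and 14.6 to 18.7 CPM in acidosis, and CD3E was at 0 in every library. Most of this sum was CD68, at a mean of 7.91 CPM in control and 12.6 CPM in acidosis. The summed level of 5 fibroblast markers was 41.9 CPM in both control samples, 45.5 to 55 CPM with SRPIN340 and 82 to 94.1 CPM in acidosis. Its members did not move together. Mean levels of COL1A1 (30.8 CPM in control, 62.3 CPM in acidosis) and LUM (7.71 and 24.4 CPM) were higher in acidosis. Those of COL3A1 (3.09 and 1.56 CPM) and DCN (0.232 and 0.178 CPM) were lower, and COL1A2 averaged 0.018 and 0.0485 CPM. The part of these markers in the results was not tested.

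In acidosis PTGS2 rose, PLA2G4A, PTGES, PTGES3, HPGD and PTGER2 fell, and PTGER4 rose by less. To be called, a gene needed an adjusted p under 0.05 (edgeR, quasi-likelihood, with Benjamini-Hochberg correction over 14863 genes) together with an absolute log2 fold change above 1. All 9 members passed the filter on low counts, PTGS1 by its acidosis samples, which left it no room to be equal at a low level. By this rule, 2 members (PTGS1 and PTGS2) were called higher and 4 (PLA2G4A, PTGES, HPGD and PTGER2) lower, or 6 of 9, where 33.5% of all genes tested were called, 14.4% higher and 19.1% lower. Without PTGS1, whose direction the filter fixed, this was 5 of 8. Without the fold limit 3 members passed higher and 5 lower, where 66.7% of all genes passed. The median log2 fold change of the members was -0.81, against -0.052 over all genes. Acidosis and control libraries did not overlap in CPM for any of the 9 members, as for 76.5% of all genes.

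**Figure D1:**
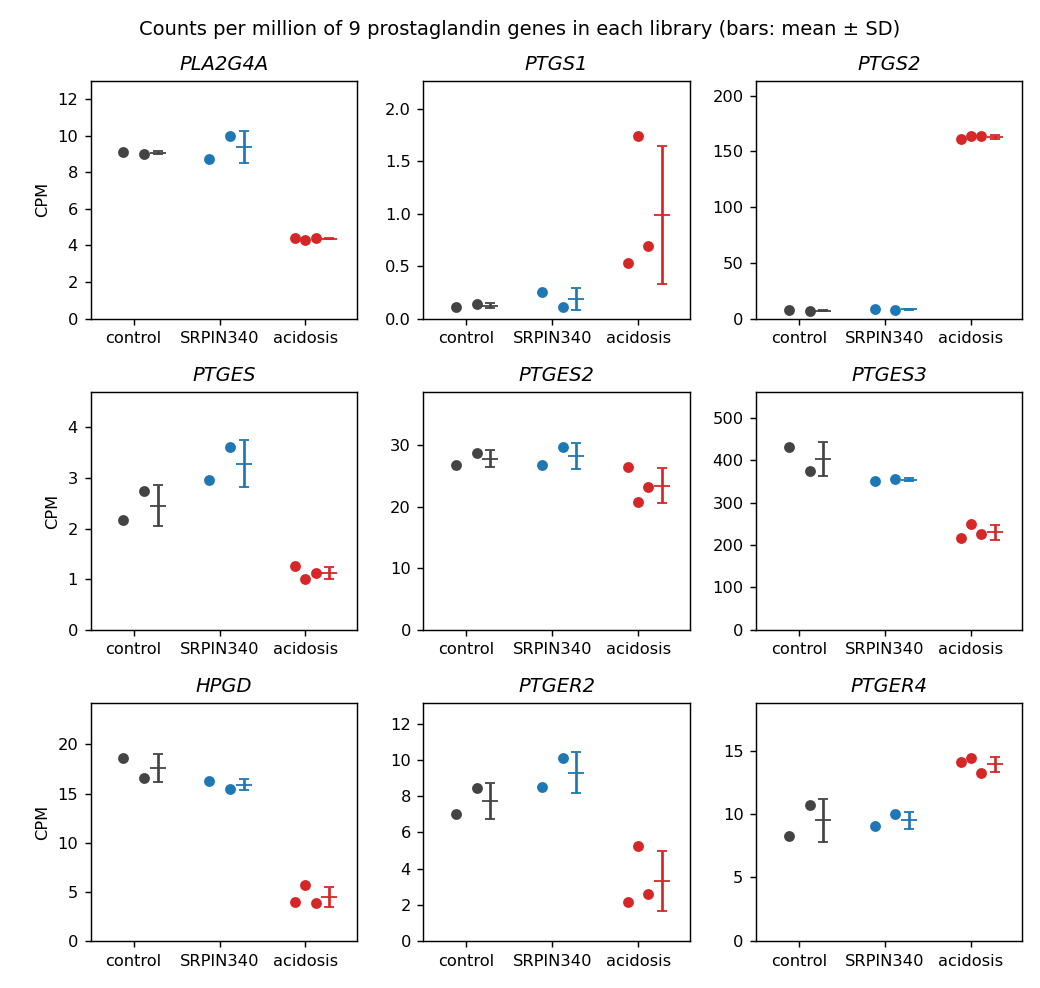
CPM (vertical axis, from 0) of the 9 genes in each library of control (2), SRPIN340 (2) and acidosis (3), with points for libraries and bars for the mean ± SD. PTGS2 sits between 161 and 164 CPM in acidosis and below 9 CPM elsewhere, while HPGD drops to between 3.87 and 5.69 CPM.

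**Figure D2:**
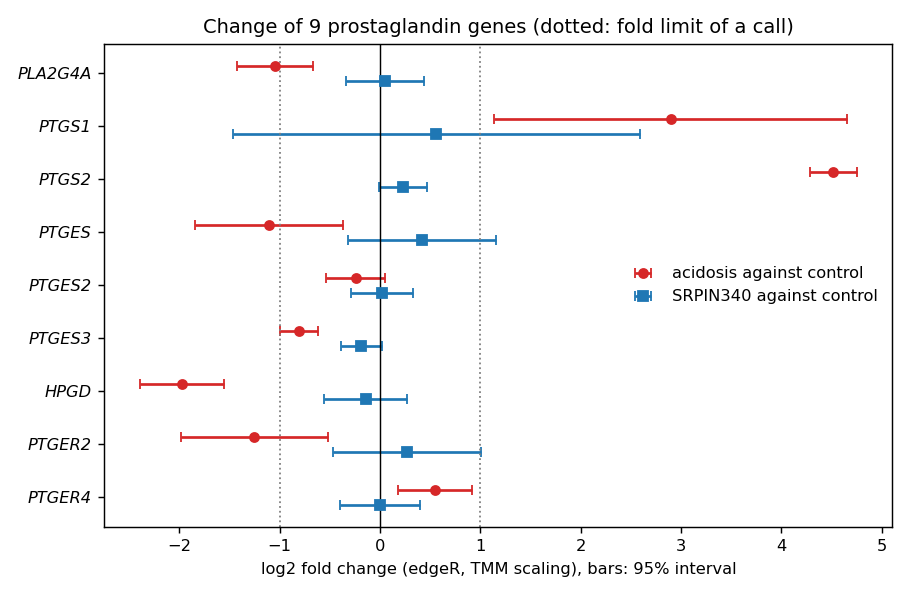
Log2 fold change against control (horizontal axis) of the 9 genes in acidosis (circles) and with SRPIN340 (squares), with 95% intervals from edgeR. The acidosis intervals of PTGS1, PTGS2 and PTGER4 lie above 0 and those of PLA2G4A, PTGES, PTGES3, HPGD and PTGER2 below 0, while every SRPIN340 interval includes 0.

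The first step is the release of arachidonic acid. PLA2G4A (ENSG00000116711.10, GRCh38 chr1:186828949-186988981, plus strand) encodes cytosolic phospholipase A2 alpha, which prefers phospholipids that carry arachidonate. It was at 9.11 and 8.99 CPM in control, 8.74 and 9.98 CPM with SRPIN340, and 4.39, 4.32 and 4.39 CPM in acidosis. The 3 acidosis samples were nearly alike and all lay below the other 4. PLA2G4A fell by 1.05 on the log2 scale (standard error 0.169, adjusted p = 0.000362 by edgeR). It lies 148026 bases from PTGS2, its neighbour among the members on chromosome 1, and the 2 genes moved in opposite directions.

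The cyclooxygenases carry out the committed step. PTGS2 (ENSG00000073756.13, GRCh38 chr1:186671791-186680922, minus strand) was at 7.35 and 6.85 CPM in control and at 8.77 and 7.86 CPM with SRPIN340. In acidosis it reached 161, 164 and 164 CPM. The acidosis samples stood far above all others and differed among themselves by less than the control samples did in relation to their mean (SD of 1.3% of the mean against 5.02%). The change was 22.9-fold, or 4.52 on the log2 scale (standard error 0.103, 95% interval 4.29 to 4.75, adjusted p = 2.18e-09 from edgeR). Of all genes tested, 99.4% had a log2 fold change no higher than this. With total-count scaling it was still 3.95.

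PTGS1 (ENSG00000095303.17, GRCh38 chr9:122370530-122395703, plus strand), the cyclooxygenase that many cells express at all times, was close to absent in these cells. Its estimated count was 2.78 and 3.68 in control, 7.42 and 2.81 after SRPIN340, and 9.39, 18.6 and 8.05 in acidosis. In CPM this was 0.108 and 0.14 in control, 0.258 and 0.114 with SRPIN340 and 0.534, 1.74 and 0.688 in acidosis, so the acidosis samples lay above the others but also spread widely. The log2 fold change of 2.90 had a 95% interval of 1.14 to 4.66 (adjusted p = 0.00843 from edgeR). Without control replicate 1 or 2 the adjusted p was 0.0677 or 0.0516 (edgeR), and without acidosis replicate 2 or 3 the gene did not pass the filter on low counts. Per kilobase of canonical transcript, PTGS2 made up 98.2% to 98.7% of the cyclooxygenase RNA in control, 97.4% to 98.7% with SRPIN340 and 99.1% to 99.7% in acidosis.

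Of the 3 genes of prostaglandin E2 synthases, none rose. PTGES (ENSG00000148344.11, GRCh38 chr9:129738331-129753042, minus strand) encodes the inducible microsomal synthase, which often rises together with PTGS2 in inflammation. It was at 2.16 and 2.74 CPM in control, 2.95 and 3.61 CPM with SRPIN340, and 1.25, 1.01 and 1.12 CPM in acidosis. All acidosis samples were below the others, and PTGES fell by 1.11 on the log2 scale (standard error 0.328, adjusted p = 0.0133 from edgeR). Without control replicate 2 the log2 fold change was -0.95 and did not pass (adjusted p = 0.0886, edgeR). In relation to PTGES, PTGS2 stood at 0.971 to 1.32 per kilobase in the control samples and at 50 to 63.2 in acidosis.

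PTGES2 (ENSG00000148334.16, GRCh38 chr9:128120693-128128462, minus strand), a second membrane-associated synthase, was at 26.8 and 28.8 CPM in control and 26.7 and 29.7 CPM with SRPIN340. In acidosis it was at 26.4, 20.7 and 23.2 CPM. The acidosis samples were lower by a small margin, and the log2 fold change of -0.24 did not pass (95% interval -0.53 to 0.05, adjusted p = 0.124 from edgeR). It passed without acidosis replicate 1 (log2 fold change -0.34, adjusted p = 0.0453) and with total-count scaling (log2 fold change -0.82, adjusted p = 0.000258, both from edgeR).

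PTGES3 (ENSG00000110958.16, GRCh38 chr12:56663341-56688408, minus strand) encodes p23, a co-chaperone of HSP90 that also has prostaglandin E synthase activity. It was by far the most abundant member, at 431 and 374 CPM in control, 351 and 356 CPM with SRPIN340 and 216, 250 and 225 CPM in acidosis. Each acidosis sample was below each other sample. PTGES3 fell by 0.81 on the log2 scale (standard error 0.0824, adjusted p = 1.65e-05 from edgeR), a 1.75-fold change that stays under the fold limit of a call. With total-count scaling it fell by 1.38 and was called. Reads could be shared with 5 annotated pseudogenes of this gene, so its level is uncertain to that extent.

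HPGD (ENSG00000164120.14, GRCh38 chr4:174490175-174523154, minus strand) encodes 15-hydroxyprostaglandin dehydrogenase, the enzyme that begins the breakdown of prostaglandin E2. It was at 18.6 and 16.6 CPM in control, 16.3 and 15.5 CPM with SRPIN340, and 3.98, 5.69 and 3.87 CPM in acidosis. The acidosis samples were far below all others. HPGD fell 3.93-fold, by 1.97 on the log2 scale (standard error 0.185, 95% interval -2.39 to -1.56, adjusted p = 8.97e-06 from edgeR). This was the largest fall among the members, and 6.47% of all genes had a log2 fold change as low or lower. The fall passed in every alternative run, with log2 fold changes of -2.55 to -1.88. Per kilobase, PTGS2 stood at 0.23 to 0.239 of HPGD in control and at 16.8 to 24.6 times HPGD in acidosis. With all exons of each gene merged, the same ratio was 0.4 and 0.415 in control and 29.1 to 42.7 in acidosis.

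Prostaglandin E2 acts on 4 receptors, and those of PTGER2 and PTGER4 both couple to the stimulatory G protein and raise cAMP. PTGER2 (ENSG00000125384.7, GRCh38 chr14:52314305-52328598, plus strand) was at 7.02 and 8.43 CPM in control, 8.51 and 10.1 CPM with SRPIN340, and 2.14, 5.23 and 2.58 CPM in acidosis. The acidosis samples were the lowest, with replicate 2 nearer to control. PTGER2 fell by 1.25 on the log2 scale (standard error 0.325, adjusted p = 0.0068 from edgeR). Without acidosis replicate 1 the log2 fold change was -0.99, just under the fold limit, and without acidosis replicate 2 it was -1.72.

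PTGER4 (ENSG00000171522.6, GRCh38 chr5:40679915-40693735, plus strand) was at 8.29 and 10.7 CPM in control, 9.03 and 9.98 CPM with SRPIN340, and 14.1, 14.4 and 13.2 CPM in acidosis. All 3 acidosis samples were above the others, and PTGER4 rose by 0.55 on the log2 scale (standard error 0.165, adjusted p = 0.0143 from edgeR), under the fold limit. With total-count scaling its log2 fold change was -0.03 (adjusted p = 0.902, edgeR), and without control replicate 1 it was 0.37 (adjusted p = 0.139, edgeR). The 2 receptor genes were at similar levels per kilobase in control, with PTGER4 at 0.845 and 0.913 of PTGER2. In acidosis PTGER4 was at 4.74, 1.97 and 3.68 times PTGER2. This ratio within a library does not depend on the scaling. PTGER4 lies within the span of TTC33 on the opposite strand, and whether the quantification used strand is not given in the sources used here. Reads could also be shared with 2 annotated pseudogenes of PTGER4.

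Divided by the length of the canonical transcript, the order of the members changed in acidosis. In control PTGES3 (212 ± 21 CPM per kilobase, SD, n = 2) was followed by PTGES2 (17.4 ± 0.877, SD, n = 2) and HPGD (6.72 ± 0.516, SD, n = 2). PTGER2, PLA2G4A and PTGER4 came next, at means of 3.14, 3.14 and 2.77 CPM per kilobase, and neighbours in this trio overlapped. PTGS2 (1.57 ± 0.0789 CPM per kilobase, SD, n = 2) and PTGES (1.4 ± 0.233, SD, n = 2) also overlapped, and PTGS1 was last at 0.0247. With SRPIN340 the order differed only in that PTGES and PTGS2, which overlapped, changed places. In acidosis PTGS2 was second after PTGES3, at 36.1 ± 0.47 CPM per kilobase (SD, n = 3) against 121 ± 9.41 (SD, n = 3), and HPGD, PLA2G4A and PTGER2 stood at 1.72, 1.52 and 1.35 with overlap between neighbours. With all exons of a gene merged in place of the canonical transcript, PTGES2 and PTGER4 in acidosis changed places, HPGD moved from place 5 to 7 in acidosis and from place 3 to 5 with SRPIN340, and PTGS2 and PTGES changed places in control, as did PTGER2 and PLA2G4A.

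**Figure D3:**
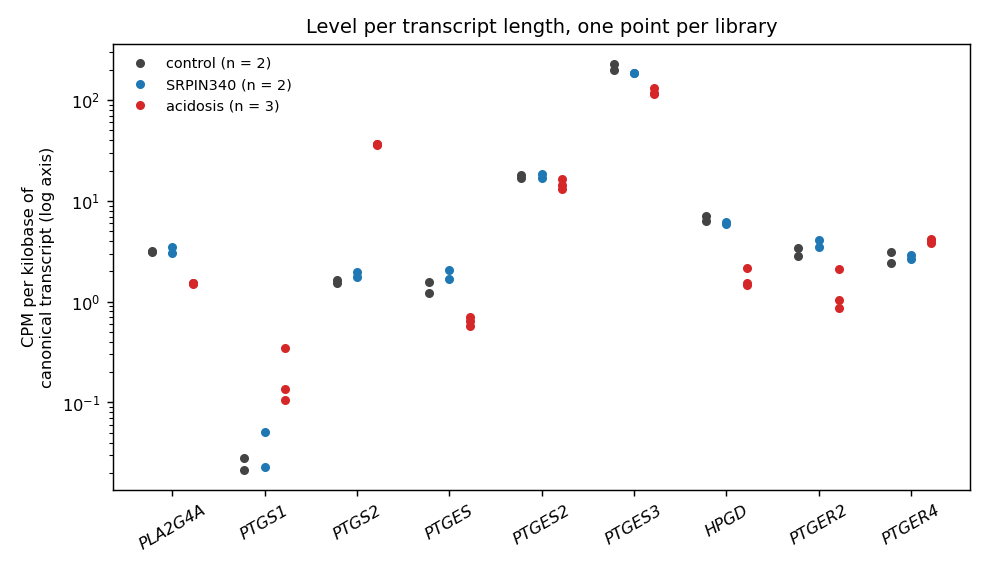
CPM per kilobase of canonical transcript (log axis) of the 9 genes, with a point for each library of control (n = 2), SRPIN340 (n = 2) and acidosis (n = 3). PTGES3 is highest in every group and PTGS1 lowest, and PTGS2 moves from 1.57 in control to 36.1 in acidosis.

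With SRPIN340 none of the 9 members passed edgeR's test, where 0.323% of all genes were called (0.128% higher and 0.195% lower) and 2.3% passed without the fold limit. The libraries of these groups did not overlap for 5 of 9 members, against 54.1% of all genes. No member had an unadjusted p under 0.05. DESeq2 called 0 as well, but it gave no adjusted p for some members, among them PLA2G4A, PTGES and PTGER2, and so could not call these. The log2 fold changes lay between -0.19 (PTGES3) and 0.56 (PTGS1). For PTGS2 the difference was 0.23 (95% interval -0.01 to 0.47, adjusted p = 0.31 from edgeR), with SRPIN340 samples above control samples by a small margin, and for PTGES3 it was -0.19 (95% interval -0.39 to 0.02). The intervals of PTGES2 (-0.29 to 0.33), PLA2G4A (-0.34 to 0.44), HPGD (-0.56 to 0.27) and PTGER4 (-0.40 to 0.40) lie within the fold limit on both sides. Those of PTGES (-0.32 to 1.16), PTGER2 (-0.47 to 1.01) and PTGS1 (-1.47 to 2.59) reach past the fold limit on the upper side, and that of PTGS1 on both sides, so they leave a change of that size possible.

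Acidosis was also tested directly against SRPIN340 in the same fit. The comparison shares its acidosis samples with the test against control, so it adds no separate evidence on the acidosis samples. The same 2 members were called higher and the same 4 lower, 6 of 9, where 34.6% of all genes were called, 14.9% higher and 19.7% lower. PTGS1 passed the filter on low counts by its acidosis samples, so its direction was fixed here as well. Without the fold limit 3 passed higher and 5 lower, where 67.8% of all genes passed, and the libraries did not overlap for 9 of 9 members, against 78.3% of all genes. PTGS2 was 4.29 higher on the log2 scale (standard error 0.101, adjusted p = 2.92e-09 from edgeR), and HPGD 1.83 lower (log2 fold change -1.83, adjusted p = 1.5e-05). PTGES and PTGER2 differed by -1.53 and -1.52 (adjusted p = 0.00213 and 0.00212 from edgeR), PLA2G4A by -1.10 (adjusted p = 0.000262) and PTGES3 by -0.62 (adjusted p = 9.9e-05). PTGS1 was higher by 2.34 (adjusted p = 0.0188), which did not pass without SRPIN340 replicate 1 or 2 (adjusted p = 0.0508 and 0.144) or with total-count scaling (adjusted p = 0.0607, all from edgeR). PTGER4 was higher by 0.55 (adjusted p = 0.0139), which did not pass without SRPIN340 replicate 1 (adjusted p = 0.109, edgeR). For PTGES2 the difference was -0.26 (adjusted p = 0.1, edgeR), which passed without acidosis replicate 1 (adjusted p = 0.0366) and with total-count scaling (log2 fold change -0.88, adjusted p = 0.000158, both from edgeR).

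The other genes of the pathway were read from 8 lists of 107 genes, of which 79 passed the filter. In acidosis 15 were called higher and 13 lower, or 35.4% of those tested against 33.5% of all genes, so as a whole they were called about as often as any gene. With total-count scaling 9 were called higher and 26 lower, where 815 of all 14863 genes were called higher and 5202 lower. Of the genes named below, PLA2G12A, TBXAS1, PTGDS, CBR1, PRXL2B, PTGR1, PTGR2, PTGDR2, LPCAT3, ACSL5, HSP90AA1, PPID, PER1 and CREM overlap another gene of the table. Their values are less certain.

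Of 23 genes of phospholipases and other routes to free arachidonate, 11 were tested, and 2 were called higher and 0 lower in acidosis (median log2 fold change 0.68). This was 18.2%, against 33.5% of all genes. The secreted phospholipase gene PLA2G12A averaged 48.5 CPM in control (SD 7.89, n = 2) and 139 CPM in acidosis (SD 13.2, n = 3), and its log2 fold change was 1.52 (adjusted p = 3.06e-06, edgeR). PLA2G4C, a relative of PLA2G4A, was at 2.95 and 1.9 CPM in control and 5.76, 5.6 and 5.25 CPM in acidosis (log2 fold change 1.19, adjusted p = 0.00798 from edgeR). Neither was called with total-count scaling.

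Among 8 other prostanoid synthase genes, PTGDS and HPGDS, the prostaglandin D synthases, were at most at 0.0759 and 0.0351 CPM in any library and were not tested. Of the 6 tested, 3 were called lower and 0 higher (median log2 fold change -1.45), or 50% against 33.5% of all genes (19.1% lower). CBR1, a carbonyl reductase that converts prostaglandin E2 to F2 alpha, averaged 65.2 CPM in control (SD 7.38, n = 2) and 12.9 CPM in acidosis (SD 0.617, n = 3), and its log2 fold change was -2.34 (adjusted p = 1.16e-07, edgeR). For PRXL2B, a prostamide and prostaglandin F synthase gene, it was -2.56 (adjusted p = 1.77e-06, edgeR). AKR1C3, a prostaglandin F synthase gene, had 111 counts in the control samples together and 6 in the acidosis samples. Its CPM was 12.9-fold higher in control (95% exact interval 5.76 to 36, for counting error only). AKR1C3 could pass the filter on low counts only by samples outside acidosis. It therefore had to come out lower, and it is counted among the 3 calls of this list. AKR1B1, an aldose reductase with prostaglandin F synthase activity and the most abundant in CPM of the list, averaged 112 CPM in control (SD 11.7, n = 2) and 169 CPM in acidosis (SD 15.6, n = 3). It passed the test without reaching the fold limit (log2 fold change 0.59, adjusted p = 0.000449 from edgeR), but was at 0.02 with total-count scaling. For the prostacyclin synthase gene PTGIS and the thromboxane synthase gene TBXAS1 the log2 fold changes of -0.56 and -0.08 did not pass (adjusted p = 0.258 and 0.887, edgeR).

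Among 6 genes of breakdown and transport, CBR3, a carbonyl reductase gene close to CBR1 in sequence, was called lower with a mean of 13.7 CPM in control (SD 0.503, n = 2) and 1.16 CPM in acidosis (SD 0.408, n = 3). ABCC4, an efflux pump for prostaglandins, passed under the fold limit at a log2 fold change of -0.745 (adjusted p = 0.000723, edgeR). PTGR1, PTGR2 and PTGR3, the reductases that act after HPGD, and the uptake transporter SLCO2A1 had log2 fold changes from -0.33 to 0.18 that did not pass. The 1 call among 6 genes is 16.7%, no more than the 19.1% of all genes called lower.

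Of 8 other receptor genes, PTGER1, PTGDR, PTGFR and PTGIR did not pass the filter, and PTGDR was at 0 in every library. PPARG, a nuclear receptor that binds prostaglandin J2 derivatives, averaged 22.7 CPM in control (SD 1.27, n = 2) and 66.8 CPM in acidosis (SD 3.07, n = 3), and its log2 fold change was 1.56 (adjusted p = 7.99e-07, edgeR) or 0.98, under the fold limit, with total-count scaling. PTGDR2 was at 0.288 and 0.14 CPM in control and 0.95, 1.56 and 1.81 CPM in acidosis (log2 fold change 2.70, adjusted p = 0.00702), a level at which a sample held few counts. It could pass the filter on low counts only by its acidosis samples, so it had to come out higher. PTGER3, the receptor that lowers cAMP, averaged 1.83 CPM in control (SD 0.042, n = 2) and 0.749 CPM in acidosis (SD 0.245, n = 3), and was called lower (adjusted p = 0.0218, edgeR). The thromboxane receptor gene TBXA2R was at a log2 fold change of 0.465, which did not pass (adjusted p = 0.199).

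**Figure D4:**
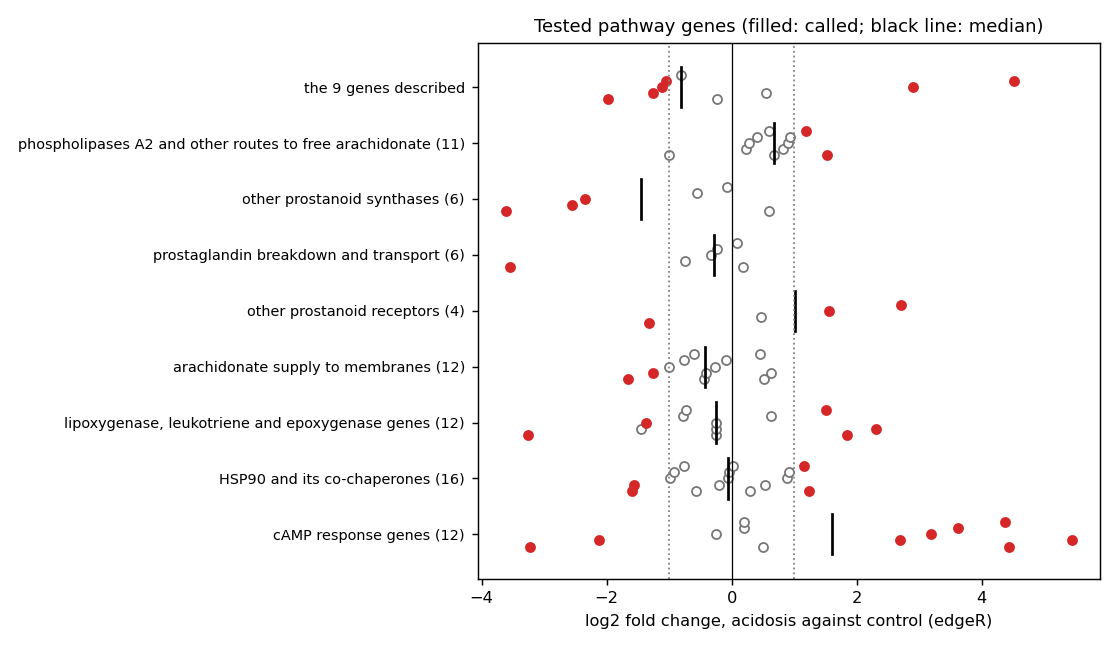
Log2 fold change in acidosis against control (horizontal axis) of the 9 genes described and of the tested genes of 8 pathway lists, with the number of genes tested in brackets. Filled points were called, open points were not, black lines are list medians and the vertical scatter within a list has no meaning. The cAMP response genes reach furthest to the right (median 1.60), and of the other prostanoid synthases 3 of 6 are called lower. Among these is AKR1C3, whose direction the filter on low counts fixed. The lists were chosen with earlier results of these data known. Of all genes, 33.5% were called, 14.4% higher and 19.1% lower.

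Genes that supply arachidonate to membranes were all tested. Of 12, 2 were called lower and 0 higher (median log2 fold change -0.43), or 16.7% against 33.5% of all genes. These were LPCAT3, which places arachidonate into phospholipids, with a log2 fold change of -1.67 (adjusted p = 9.85e-06 from edgeR), and the acyl-CoA synthetase gene ACSL1, with -1.26 (adjusted p = 4.28e-06). With total-count scaling 5 were called lower (median -1.003), where 5202 of all 14863 genes were called lower. The desaturase gene FADS2 was the member of this list that passed with SRPIN340, at a log2 fold change of -0.72 (adjusted p = 0.00225, edgeR). It overlaps FEN1, and also FADS1, whose log2 fold change of -0.295 with SRPIN340 did not pass.

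PTGES3 shares its chaperone work with HSP90, and of the 16 genes of HSP90 and its co-chaperones 2 were called higher and 2 lower in acidosis (median log2 fold change -0.055), or 25% against 33.5% of all genes. HSP90AA1 and HSP90AB1 rose by 0.89 and 0.92 on the log2 scale (adjusted p = 9.46e-07 and 3.66e-07 from edgeR), while PTGES3 fell. The immunophilin genes FKBP4 and FKBP5 were called in opposite directions, at 1.17 and -1.59 (adjusted p = 5.61e-07 and 1.13e-06). PPID was called lower (log2 fold change -1.56) and TTC4 higher (1.24, with reads that could be shared with the read-through gene MROH7-TTC4). With total-count scaling 0 were called higher and 6 lower, where 815 of all 14863 genes were called higher and 5202 lower.

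A list of cAMP response genes was read because PTGER2 and PTGER4 act through cAMP, although many other signals change such genes too. Of 12 tested, 6 were called higher in acidosis and 2 lower (median log2 fold change 1.60). This was 66.7%, against 33.5% of all genes, of which 14.4% were called higher and 19.1% lower. The list was chosen with earlier results of these data known, so its share describes these 12 genes only. With total-count scaling the same numbers were called, where 815 of all 14863 genes were called higher and 5202 lower. The largest rises were in NR4A1 (log2 fold change 5.45), SIK1 (4.44) and PER1 (4.37), with adjusted p of 5.33e-09, 2e-06 and 6.81e-08 from edgeR. The phosphodiesterase genes PDE3B and PDE4B went against the other calls of the list and were called lower, at -3.23 and -2.12 (adjusted p = 7.77e-08 and 0.00372, edgeR). PDE4B could pass the filter on low counts only by samples outside acidosis, so it had to come out lower. CREM, PDE4D and PDE10A did not pass. Whether cAMP changed was not measured.

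Against SRPIN340, acidosis had 17 of the 79 genes called higher and 15 lower, or 40.5% against 34.6% of all genes. Those with large changes not yet named were AREG, a growth factor gene of the cAMP list (log2 fold change 3.58, adjusted p = 1.38e-06, edgeR), and DAGLA, a diacylglycerol lipase gene (log2 fold change -1.18, adjusted p = 0.00539). ACSL5 was also called lower, at 0.59 and 0.418 CPM with SRPIN340 and 0.0594, 0 and 0.086 CPM in acidosis. It could pass the filter on low counts only by its SRPIN340 samples, so it had to come out lower. The filter also left AKR1C3, PDE4B and CYP2J2 only the lower direction here, and PTGDR2 only the higher.

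With SRPIN340, 0 of the 79 genes were called by edgeR and 1 by DESeq2 (SIK1, log2 fold change 1.20, adjusted p = 0.0137 from DESeq2). Without the fold limit FADS2 and STIP1 passed, both lower (log2 fold change -0.72 and -0.32), and 23 had an unadjusted p under 0.05, or 29.1% against 17.6% of all genes.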

How the data were processed

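Poly(A) RNA of 7 samples was sequenced. Per the methods of the study, the authors trimmed reads with Trimmomatic 0.39 and Trim Galore 0.6.6, ran Salmon 1.5.1 against Gencode transcripts of GRCh38.p13 and imported the output with tximport. What the authors deposited is a table of estimated counts by gene and sample, not normalized between samples. The tximport option is not given in the sources used here. Identifiers were matched to GENCODE release 44 (19977 of 19978). Its coordinates are GRCh38, the build of the quantification. Promoter sequences are from RefSeq (GRCh38.p14, all 9 members matched, 1 to 3 starts each).

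After rounding, the counts went into edgeR 4.0.16 under R 4.3.3 (filterByExpr, TMM, quasi-likelihood, all 7 samples in a single fit, Benjamini-Hochberg adjustment over all genes tested). Standard errors come from the test statistic, and intervals from it and the fit's degrees of freedom. DESeq2 1.42.0, the authors' tool for these counts, was an alternative. So were other scalings, no filter, unrounded counts, only the groups compared, a replicate block, no fold limit and each replicate left out. The tests were checked on simulated counts. All replicate pairs differed by more than sampling noise. The members and lists were chosen with earlier results of these data known. Named genes were all members, every measured gene of the lists of other prostanoid synthases and receptors, up to 3 called genes with the largest change per list and comparison, and for PTGS1 and PTGS2 the 3 genes with the smallest root mean square difference of log2 CPM (prior count 2) from the control mean over the 7 samples. Other list genes named were added after their values were seen (PDE3B, PDE4B, HSP90AA1, HSP90AB1, FKBP4, ABCC4, FADS2, STIP1 and those given as not passing outside the synthase and receptor lists). Intervals of ratios of counts cover counting error only.

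The marker lists were read without 1 leukocyte marker, which is not reported here.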

Additional observations from a re-analysis of the deposited data

How the results depend on the processing

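Of 9 members, PTGS2, HPGD, PLA2G4A, PTGES3 and PTGER2 kept their direction and passed in acidosis against control under every alternative run. PTGS1 could not be tested without acidosis replicate 2 or 3, nor with only control and SRPIN340 samples. Members called in acidosis numbered 4 to 5 with a replicate left out, 7 with total-count scaling and 6 with DESeq2. Against SRPIN340 they numbered 5 to 6 with a replicate left out. With no fold limit, 9917 genes passed in acidosis against control, 10084 against SRPIN340 and 342 with SRPIN340 against control, and of the pathway genes 52, 56 and 2, while DESeq2 called 1 pathway gene with SRPIN340. With SRPIN340 48 genes were called, 11 to 29 with a replicate left out. Libraries scaled by total count gave 815 higher and 5202 lower calls in acidosis against control in place of 2145 and 2840.

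Labels give the groups the same repeat numbers but no shared day or batch, and samples with the same number correlated between -0.115 and 0.063 in their deviations over genes, so the numbers were not taken to pair them. With a replicate block, 27 genes were called with SRPIN340 in place of 48, and 6 members in acidosis, and PTGES passed narrowly (adjusted p = 0.0492, edgeR). The block changed no other call of a member.

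Signs reversed for PTGER4 in acidosis with total-count scaling (-0.0252 against control, -0.0628 against SRPIN340), and otherwise only for log2 fold changes with SRPIN340 that did not pass in any fit. For PTGER4, at -0.0015, these were 0.0376 with total-count scaling, 0.00012 without rounding, 0.00044 without the filter and 0.0051 with the replicate block, and -0.18 to 0.20 with a replicate left out. With a replicate left out the range was -0.0509 to 0.142 for PLA2G4A, -0.0605 to 0.094 for PTGES2 and -0.12 to 1.02 for PTGS1. Depth limits PTGS1 most, with 19 or fewer counts in every library.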

Other observations

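Of 22 lipoxygenase, leukotriene and epoxygenase genes, 12 passed the filter, and acidosis had 3 higher and 2 lower calls among them. This was 41.7%, against 33.5% of all genes. With total-count scaling 2 were called higher and 5 lower, where 815 of all 14863 genes were called higher and 5202 lower. ALOXE3, an epidermis-type lipoxygenase gene, was at 1.12 and 1.44 CPM in control, 3.94 and 1.78 CPM with SRPIN340 and 6.89, 6.79 and 5.42 CPM in acidosis, with a log2 fold change of 2.31 (adjusted p = 0.000456, edgeR). The epoxygenase gene CYP2J2 averaged 4.93 CPM in control (SD 0.568, n = 2) and 0.516 CPM in acidosis (SD 0.112, n = 3), and its log2 fold change was -3.26 (adjusted p = 1.23e-05, edgeR). CYP2J2 could pass the filter on low counts only by samples outside acidosis, so it had to come out lower. The leukotriene B4 receptor gene LTB4R2 was called higher, at 1.84 (adjusted p = 4.13e-05, edgeR). It overlaps LTB4R, at 1.51, so reads could be split between the 2 genes.

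By the root mean square difference of log2 CPM from the control mean over the 7 libraries, the genes closest to PTGS2 were SAT1, a polyamine acetyltransferase gene (0.0824), DHH, a hedgehog ligand gene (0.106), and GADD45A, a stress-response gene (0.108). SAT1 was at 173 and 195 CPM in control, 225 and 190 CPM with SRPIN340 and 4100, 4160 and 4200 CPM in acidosis, and DHH held few counts outside acidosis. For PTGS1 the closest were OR4K17 (0.383), SCG3 (0.397) and GOLGA8R (0.399), which like PTGS1 were highest in acidosis replicate 2. These distances describe 7 libraries in 3 groups and carry no test.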
